A study of Mus musculus with 8 samples.

Results

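The genes described here are the matrix metalloproteases (MMPs), the ADAMTS proteases, the ADAMTS-like proteins and the tissue inhibitors of metalloproteases (TIMPs). The family was picked with earlier results of these data known, and its members were then taken by gene symbol alone. They are the rows of the counts table whose Entrez gene ID maps to an Adamts, Adamtsl, Mmp or Timp symbol followed by its number. This gave 51 members among 24573 genes, namely 23 Mmp, 19 Adamts, 5 Adamtsl and 4 Timp genes. RNA sequencing was done on C2C12 cells, a line of mouse myoblasts that divides as muscle precursors in serum. Every culture was transduced with a lentivirus carrying a short hairpin RNA (shRNA), selected and kept in puromycin, and harvested while proliferating. The shRNA was directed against Brd9, against Baf250A, against Baf180, or was a scrambled control, with 2 libraries for each of the 4 shRNAs. Brd9, Baf250A (gene symbol Arid1a) and Baf180 (gene symbol Pbrm1) are subunits of different forms of the SWI/SNF chromatin remodeller, called non-canonical BAF, canonical BAF and PBAF. The comparisons ask how the family depends on each form. Each target is represented by 1 shRNA in the sample titles and the control by 1 scramble line, so effects of a single hairpin or line cannot be told apart from loss of the target.

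MMPs and ADAMTS proteases are zinc-dependent enzymes that cut the extracellular matrix. MMPs degrade collagens, gelatin and basement membrane proteins, and are made as inactive precursors that other proteases, such as furin or a membrane-bound MMP, must cleave. ADAMTS proteases trim proteoglycans such as versican and aggrecan, mature procollagens and process fibrillin, while ADAMTS-like proteins share their matrix-binding modules without the protease domain. TIMPs block the active site of MMPs and, in the case of TIMP3, of several ADAMTS and ADAM proteases. In skeletal muscle these enzymes are known for remodelling the matrix around satellite cells during migration, fusion and repair.

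Library totals ran from 17763076 to 20400863 estimated counts, and 34 to 38 of the 51 members had a count in a given library. Scramble replicate 2 stood apart, with 16402 genes detected against 14195 to 14768 in the other libraries. The libraries also differed along transcript GC content. Among the tenth of tested genes with the lowest GC content (up to 42.3%), the median log2 deviation from the mean of all libraries was 0.44 and 0.05 in the Brd9 libraries, 0.48 and 1.06 in the Baf250A libraries, -1.10 and -0.69 for Baf180 and -0.18 and -0.01 for scramble. Each fold change was therefore also computed with per-library offsets for GC content and gene length, called offsets below. The targeted genes had fewer counts in their own libraries. Brd9 had 157 and 135 counts in Brd9 knockdown and 717 and 637 in scramble, Arid1a 1335 and 1243 in Baf250A knockdown and 2834 and 2720 in scramble, and Pbrm1 65 and 86 in Baf180 knockdown and 876 and 969 in scramble. In the other groups Brd9 had 768 and 838 (Baf250A) and 593 and 670 (Baf180), Arid1a 3618 and 3215 (Brd9) and 2747 and 3269 (Baf180), and Pbrm1 1365 and 957 (Brd9) and 1483 and 2325 (Baf250A). Nothing in the labels ties the paired libraries of a shRNA to independent cultures, and the p-values below reflect only the scatter among these libraries, possibly technical. That scatter was unequal. The mean chi-square per gene between the libraries of a group was 8.707 in scramble, 29.32 in Brd9, 29.05 in Baf250A and 36.35 in Baf180 knockdown. The fit estimates the spread over all groups together.

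Of the 51 members, 30 passed the filter on low counts and were tested, 26 of them with both libraries of all 4 groups above the minimum of 0.541 CPM, which is counts per 1000000 after scaling for library size. The other 4 passed through fewer groups. Adamts16 passed through the Brd9 libraries alone, Adamts9 through Brd9 and Baf250A, Adamts3 through the 3 knockdowns, and Mmp9 through Baf180 and scramble. To compare genes with each other, levels are given as CPM per kilobase of gene length. On that scale the inhibitors led the family. In scramble, Timp1 stood at 337 ± 7.49 CPM per kilobase (SD, n = 2) and Timp2 at 282 ± 0.826. Mmp14 followed at 101 ± 6.03 CPM per kilobase, then Timp3 at 50.2 ± 3.34, Mmp2 at 28.2 ± 1.76 and Mmp11 at 22.4 ± 0.455. The most abundant ADAMTS gene in scramble was Adamts14 at 12.5 ± 0.0647 CPM per kilobase, ahead of Adamts7 at 11.5 ± 0.828. Adamts9, at 0.0233 ± 0.0195 CPM per kilobase, had the lowest level of the tested members, from 4 and 1 counts.

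**Figure D1:**
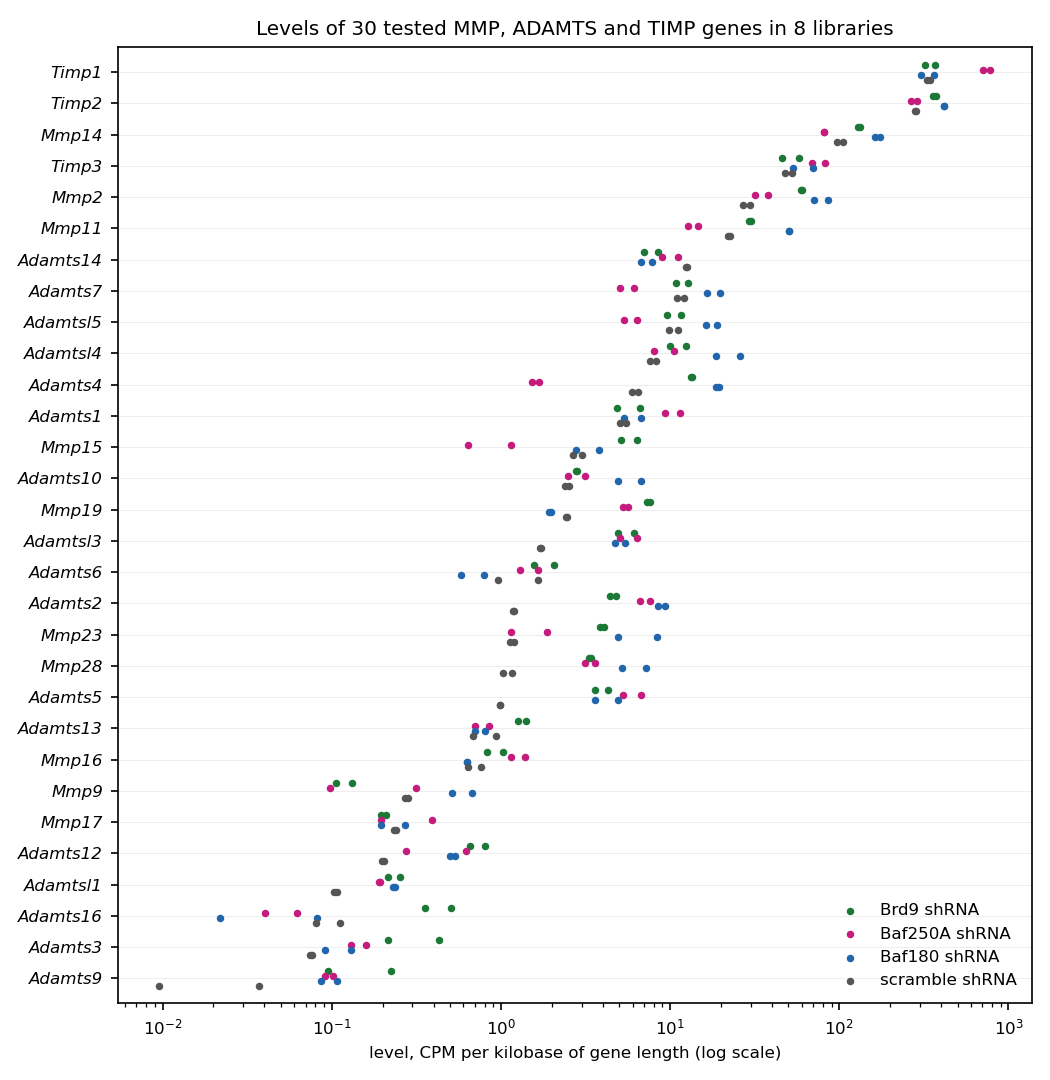
Level of each of the 30 tested members (rows, ordered by scramble mean) in CPM per kilobase of gene length on a log axis, with 1 point per library and colours for the 4 shRNAs. Timp1 stands at 745 ± 53.3 CPM per kilobase in Baf250A knockdown and 337 ± 7.49 in scramble (mean ± SD, n = 2), and Adamts4 at 1.59 ± 0.108 and 6.22 ± 0.356 in the same groups.

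Taken as a sum over the 51 members, the 4 TIMPs made up 69.5% and 70.8% of the CPM per kilobase in the Brd9 libraries, 84.0% and 83.8% in the Baf250A libraries, 65.0% and 65.2% for Baf180 and 74.8% and 75.2% for scramble. The inhibitors' share was thus highest in both Baf250A libraries and lowest in both Baf180 libraries, and no 2 groups overlapped. This share is a description with no test.

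The other 21 members were silent or nearly so. Counts were 0 in all 8 libraries for 10 of them, Adamts18, Adamts19, Adamts20, Mmp1a, Mmp1b, Mmp7, Mmp8, Mmp21, Mmp25 and Mmp27. A count of 0 allows up to 3 counts, which is 0.147 to 0.169 CPM depending on the library, and covers counting error only. The other 11 had a highest count in any library of 1 (Adamts8, Mmp12 and Mmp20), 2 (Adamts15), 3 (Adamtsl2 and Timp4), 4 (Adamts17 and Mmp13), 8 (Mmp3 and Mmp10) or 18 (Mmp24). All 4 members classed here as collagenases (Mmp1a, Mmp1b, Mmp8 and Mmp13) were among the untested members. Mmp14, a membrane-anchored collagenase, was classed with the membrane-type MMPs and was tested. Timp4, the inhibitor best known from heart and brain, and Mmp7, the matrilysin of epithelia, were also untested. Mmp3, stromelysin 1, had 1 and 3 counts in Brd9 knockdown, 0 and 1 in Baf250A knockdown, 5 and 8 in Baf180 knockdown and 1 and 0 in scramble. For Mmp10, stromelysin 2, the counts were 2 and 2, 0 and 2 and 1 and 2 in the same knockdowns and 7 and 8 in scramble. Mmp24, a membrane-type MMP, overlaps the gene model BC029722 on the opposite strand, which had 702 to 939 counts, so its few counts are uncertain.

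Most of these silent MMPs are neighbours. Chromosome 9 carries 10 Mmp genes between 7272514 and 7699585 (GRCm38, which mm10 also denotes), and the highest count of any of them in any library was 8. Their promoter windows differed in motifs and base content from those found for tested members. Windows of 250 bases before to 50 bases after the gene start were found in RefSeq (GRCm38.p6) for 36 members, 39 windows in all. These covered all 10 chromosome 9 genes but only 18 of the 30 tested members. Tested members without a window were Mmp2, Mmp9, Mmp16, Mmp17, Mmp19, Adamts4, Adamts5, Adamts6, Adamts7, Adamts10, Adamts16 and Adamtsl1, so the contrast leaves them out. The AP-1 motif TGANTCA, searched on both strands, stood in 8 of the 39 windows, which is 20.5%, against 7.81% of all 32851 windows of this length in that table. All 8 belonged to the chromosome 9 group, to 8 of its 10 genes, and none of the 27 other member windows held the motif. Its first base lay between position -95 (Mmp20) and position -35 (Mmp13), counted from the gene start. The GC box GGGCGG stood in 22 of the 39 windows (56.4%, against 35.7% of all windows), in 17 of the 19 windows of tested members and in none of the 12 windows on chromosome 9. The other 5 with a GC box belonged to untested members on other chromosomes (Adamts18, Adamts20, Adamtsl2, Mmp24 and Mmp25). GC content ran from 37.7 to 52.0% in those 12 windows and from 54.7 to 78.7% in the 19 windows of tested members. The E-box CANNTG was found in 71.8% of member windows and 72.3% of all windows, and the TEAD motif GGAATG in 5.13% and 14.7%. No motif of the 4 contains another. An E-box can end in the first letters of an AP-1 match, as in Mmp7 and Mmp10, or begin in its last letters. Near matches to the AP-1 pattern, such as TGAGTAA in the Timp1 window, were not counted. The absence of the motif outside the chromosome 9 group thus holds for the exact pattern only. A match describes the letters of the window and is not evidence of binding.

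A pair of windows from the chromosome 9 group and 3 from expressed members show the difference, read 5′ to 3′ along the gene's own strand, with AP-1 motifs and GC boxes in capitals. In Mmp3 and Mmp13 the capitals are an AP-1 motif, and in Timp1, Adamts2 and Mmp28 they are GC boxes, which read CCGCCC when on the other strand.
Mmp3 (chr9:7445572-7445871, plus strand): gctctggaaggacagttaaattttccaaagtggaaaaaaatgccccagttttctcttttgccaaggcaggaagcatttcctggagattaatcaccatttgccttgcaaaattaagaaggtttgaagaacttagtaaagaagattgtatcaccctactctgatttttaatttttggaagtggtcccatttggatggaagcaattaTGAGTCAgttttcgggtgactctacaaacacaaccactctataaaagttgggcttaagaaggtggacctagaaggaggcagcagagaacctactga
Mmp13 (chr9:7272264-7272563, plus strand): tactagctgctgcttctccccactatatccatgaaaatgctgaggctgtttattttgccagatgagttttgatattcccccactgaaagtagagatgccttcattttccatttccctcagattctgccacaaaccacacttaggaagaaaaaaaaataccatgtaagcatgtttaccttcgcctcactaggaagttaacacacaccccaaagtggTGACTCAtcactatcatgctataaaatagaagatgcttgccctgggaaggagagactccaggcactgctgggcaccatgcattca
Timp1 (chrX:20869916-20870215, plus strand): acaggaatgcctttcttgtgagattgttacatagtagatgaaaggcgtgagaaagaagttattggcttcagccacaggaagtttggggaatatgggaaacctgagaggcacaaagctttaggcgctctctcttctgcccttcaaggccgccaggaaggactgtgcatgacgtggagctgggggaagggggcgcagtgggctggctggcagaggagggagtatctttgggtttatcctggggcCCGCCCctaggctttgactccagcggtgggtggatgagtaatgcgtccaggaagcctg
Adamts2 (chr11:50601835-50602134, plus strand): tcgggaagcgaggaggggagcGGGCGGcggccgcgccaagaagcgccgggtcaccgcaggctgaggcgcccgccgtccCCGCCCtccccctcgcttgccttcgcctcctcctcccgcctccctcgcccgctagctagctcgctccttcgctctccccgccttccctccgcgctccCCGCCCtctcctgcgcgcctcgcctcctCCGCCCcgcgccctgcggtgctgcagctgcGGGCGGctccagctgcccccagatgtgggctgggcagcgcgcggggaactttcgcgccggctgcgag
Mmp28 (chr11:83462991-83463290, minus strand): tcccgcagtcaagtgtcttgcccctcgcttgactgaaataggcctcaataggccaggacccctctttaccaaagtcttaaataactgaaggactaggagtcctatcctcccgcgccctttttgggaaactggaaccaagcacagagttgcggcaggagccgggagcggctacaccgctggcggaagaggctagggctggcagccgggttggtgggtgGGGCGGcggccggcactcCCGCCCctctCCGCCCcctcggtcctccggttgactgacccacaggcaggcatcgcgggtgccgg

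**Figure D2:**
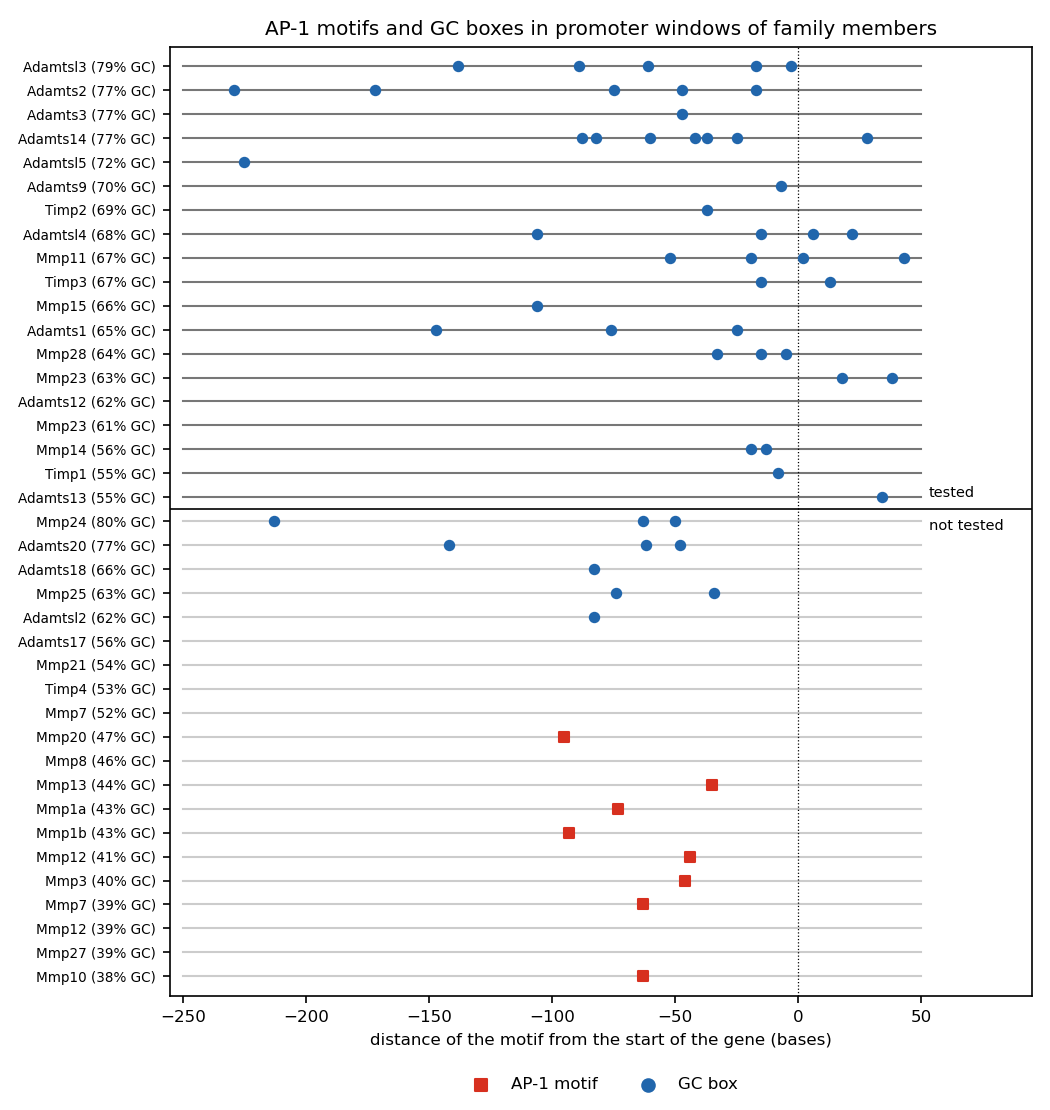
Promoter windows of 36 members, 18 of them tested (lines, 39 windows, ordered by GC content within the tested and not tested members), with AP-1 motifs as red squares and GC boxes as blue circles by distance from the gene start in bases. The 8 AP-1 motifs lie in windows of untested members, and GC boxes in 17 of the 19 windows of tested members and 5 of the 20 windows of untested members.

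Against scramble, expressed members moved mostly upward in Brd9 and Baf180 knockdown and in both directions in Baf250A knockdown. In Brd9 knockdown 14 of the 30 tested members were higher and 1 lower at an adjusted p below 0.05 in edgeR's quasi-likelihood test (called, in what follows), where 6.45% of all 12420 tested genes were higher and 3.57% lower (10.0% in all). In Baf250A knockdown 9 were higher and 5 lower (all genes 15.5% and 14.0%, 29.5% in all). In Baf180 knockdown 16 were higher and 2 lower (all genes 17.2% and 17.0%, 34.2% in all). The median log2 fold change of the tested members was 0.61, 0.31 and 0.75 in the 3 knockdowns, and that of all tested genes 0.04, -0.02 and -0.02. With the offsets 20 members were higher and 1 lower in Brd9 knockdown (all genes 14.4% and 13.8%, 28.2% in all), 13 and 5 in Baf250A knockdown (17.4% and 18.1%, 35.5% in all), and 16 and 1 in Baf180 knockdown (19.5% and 18.8%, 38.3% in all). The Brd9 count of 15 members fell to 7 without Brd9 replicate 1, to 7 without scramble replicate 1 and to 6 without scramble replicate 2. Since 4 of the 30 members passed the filter through some of the groups, these counts describe the tested members and not all 51. Of the 14 higher in Brd9 knockdown, Adamts3, Adamts9 and Adamts16 did not pass through scramble, so their direction gives no support.

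Over the 3 comparisons, which share the scramble libraries, 27 members were called at least once and 3 (Adamts13, Mmp9 and Mmp17) in none. The 27 include Adamts3, Adamts9 and Adamts16, called in Brd9 knockdown alone, which did not pass the filter through scramble. How often all tested genes show such patterns over the 3 comparisons was not computed. The counts of members with each pattern are therefore a description only. Adamts2, Adamts5, Adamtsl3 and Mmp28 were higher in all 3 knockdowns. Another 4 members were higher in Brd9 and Baf180 knockdown without a call in Baf250A knockdown (Mmp2, Mmp23, Adamts12 and Adamtsl1). With the offsets Mmp2, Mmp23 and Adamtsl1 were called higher in Baf250A knockdown too (Adamtsl1 0.91, adjusted p = 0.0388). A further 5 were called in opposite directions, lower in Baf250A knockdown and higher in another. Of these, Adamts4 was higher in both other knockdowns, Mmp15 in Brd9 knockdown, and Mmp11, Adamts7 and Adamtsl5 in Baf180 knockdown. With the offsets the Baf180 rises of Adamts7 and Adamtsl5 were no longer called. Calls that ended with a library left out are given with each member below. The libraries of knockdown and scramble did not overlap in CPM for 24, 22 and 24 of the 30 tested members in Brd9, Baf250A and Baf180 knockdown. Over all tested genes this held for 65.0%, 75.8% and 72.1%, so separation without overlap was common among all genes.

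**Figure D3:**
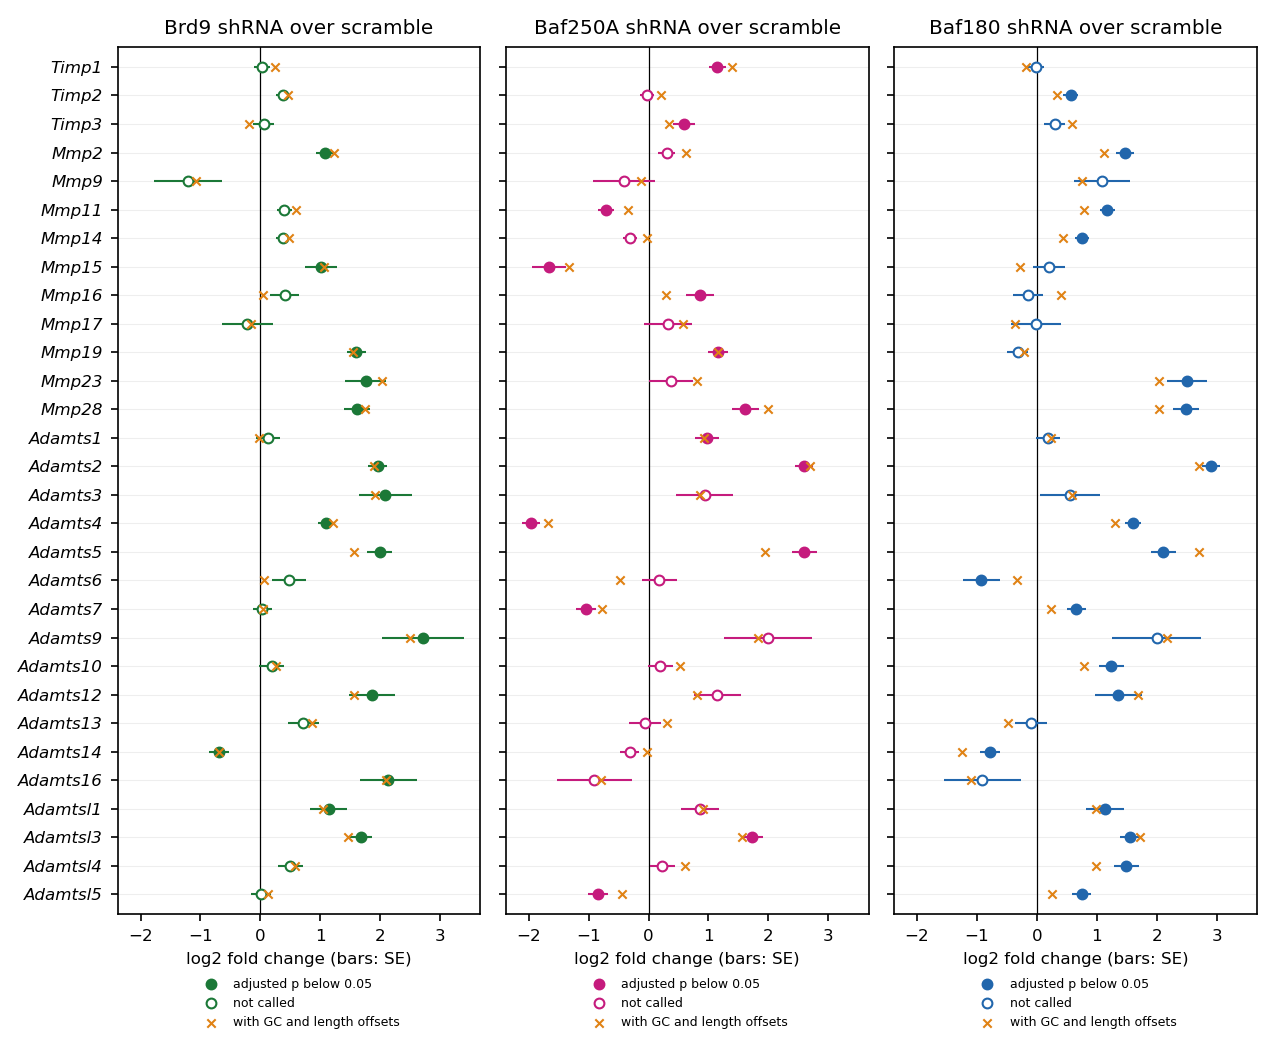
Log2 fold change of the 30 tested members for each knockdown over scramble, with bars of 1 SE, filled points at an adjusted p below 0.05 and crosses for the value with offsets. Adamts2 lies at 1.96, 2.59 and 2.91 in the 3 panels, while Adamts4 lies at 1.10, -1.96 and 1.61.

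Timp1 (chromosome X, 20870166 to 20874737), a secreted inhibitor of most MMPs, was higher in Baf250A knockdown alone among the comparisons with scramble. It had 288 and 329 CPM in Brd9 knockdown, 704 and 636 in Baf250A knockdown, 326 and 275 in Baf180 knockdown and 308 and 298 in scramble. Both Baf250A libraries lay above all 6 other libraries, and the other groups overlapped. The rise over scramble was 2.21-fold (log2 fold change 1.15, SE 0.14, adjusted p = 0.00065), and Timp1 was also called higher in Baf250A than in Brd9 knockdown (log2 fold change 1.12, SE 0.14, adjusted p = 0.000713) and in Baf180 knockdown (log2 fold change 1.16, SE 0.14, adjusted p = 0.000237). Brd9 and Baf180 knockdown gave 0.03, SE 0.14, adjusted p = 0.918 and -0.01, SE 0.14, adjusted p = 0.952, with a Brd9 value of 0.24 that was called with the offsets (adjusted p = 0.0372). Timp1 lies within Syn1, which runs on the opposite strand, and whether counting used strand is not given. Syn1 itself had 552 and 706 counts in Brd9, 412 and 285 in Baf250A and 1744 and 1134 in Baf180 knockdown, and 765 and 712 in scramble. It was called lower in Baf250A (log2 fold change -1.25, SE 0.27, adjusted p = 0.00959) and higher in Baf180 knockdown (0.95, SE 0.26, adjusted p = 0.0215). Whether reads were shared between the 2 genes was not tested.

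Timp2 (chromosome 11, 118301061 to 118355411) inhibits MMPs and also serves, bound to Mmp14, as the docking site at which Mmp2 is activated. It had 1308 and 1364 CPM in Brd9 knockdown, 1045 and 962 in Baf250A knockdown, 1512 and 1519 in Baf180 knockdown and 1023 and 1027 in scramble. Both Brd9 and both Baf180 libraries lay above the scramble libraries, and the Baf250A libraries overlapped them. The rise was called in Baf180 knockdown (log2 fold change 0.56, SE 0.12, adjusted p = 0.00851), which was no longer called without scramble replicate 1 (adjusted p = 0.0762) or 2 (adjusted p = 0.078). In Brd9 knockdown the difference was not called (log2 fold change 0.38, SE 0.12, adjusted p = 0.0731), though it was with the offsets (adjusted p = 0.00339). Baf250A knockdown gave -0.03, SE 0.12, adjusted p = 0.86, and 0.21 with the offsets (adjusted p = 0.0723). Timp3 (chromosome 10, 86300412 to 86349505), the inhibitor that stays bound to the matrix, had 272 and 216 CPM in Brd9 knockdown, 322 and 387 in Baf250A knockdown, 249 and 328 in Baf180 knockdown and 246 and 224 in scramble. Its rise in Baf250A knockdown (log2 fold change 0.59, SE 0.18, adjusted p = 0.0354) ended without Baf250A replicate 2 or either scramble library (adjusted p up to 0.186). In Baf180 knockdown Timp3 was not called (log2 fold change 0.30, SE 0.18, adjusted p = 0.219) but was with the offsets (log2 fold change 0.59, SE 0.08, adjusted p = 0.000437), and the Brd9 value was 0.05, SE 0.18, adjusted p = 0.861. Timp2 and Timp3 overlap Cep295nl and Syn3, which had at most 40 and 22 counts in any library. Timp4 had 0 and 3 counts in Brd9 knockdown, 0 and 0 in Baf250A knockdown, 0 and 0 in Baf180 knockdown and 1 and 0 in scramble.

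**Figure D4:**
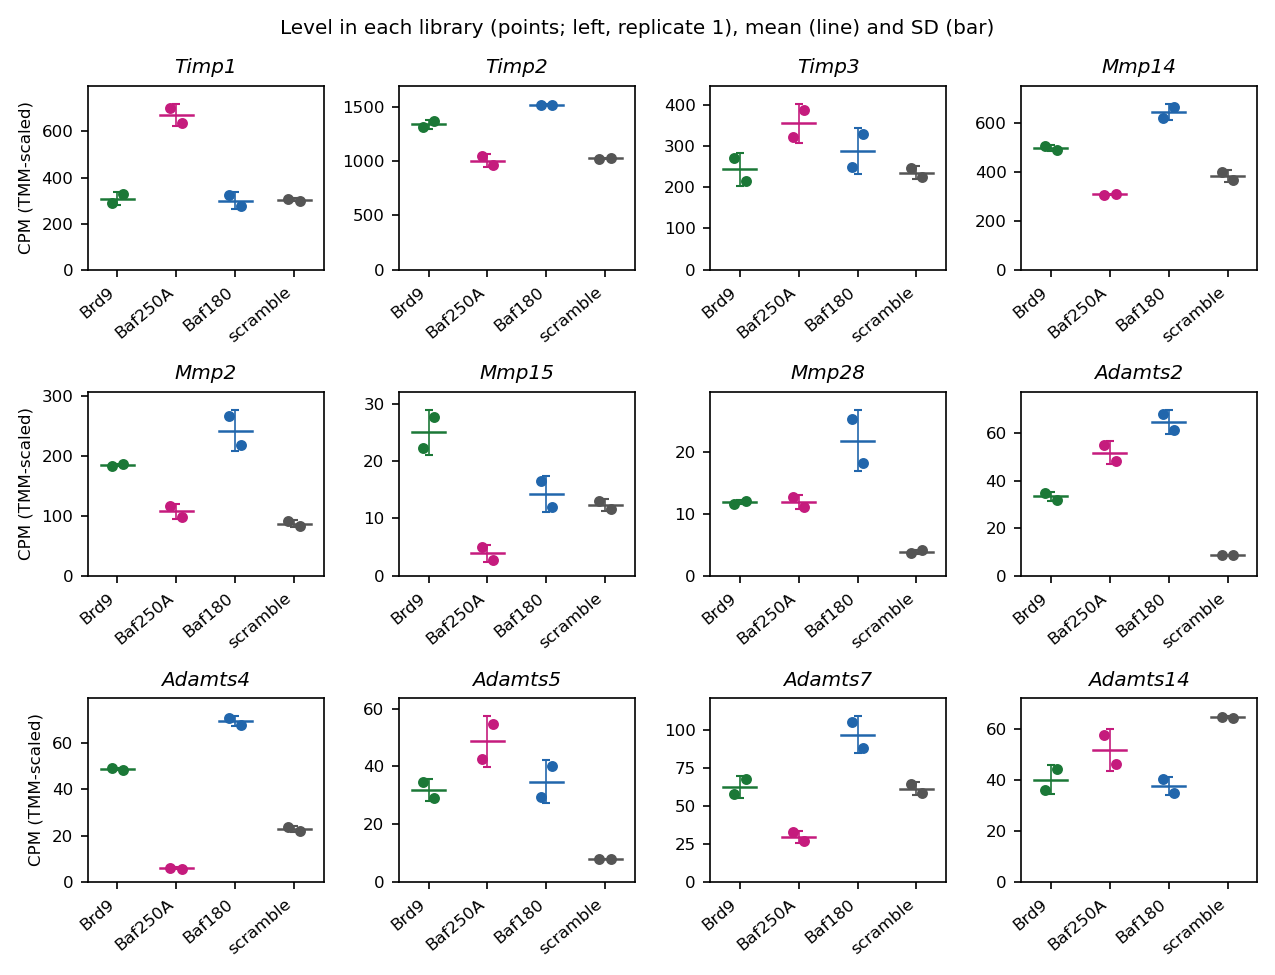
Level of 12 members in each library in TMM-scaled CPM on axes that start at 0, with points for libraries, lines for means and bars for the SD of 2 libraries. Timp1 averages 669.7 ± 47.9 CPM in Baf250A knockdown and 303 ± 6.74 in scramble, and the Baf250A libraries are the highest of the 8 for Timp1 and the lowest for Mmp14, Mmp15, Adamts4 and Adamts7.

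Mmp14 (chromosome 14, 54431598 to 54442456), the membrane-anchored collagenase that activates pro-Mmp2 at the cell surface, was the most abundant protease of the family in scramble. It had 506 and 489 CPM in Brd9 knockdown, 307 and 310.1 in Baf250A knockdown, 621 and 666 in Baf180 knockdown and 399 and 367 in scramble. The 4 groups did not overlap, in the order Baf180, Brd9, scramble and Baf250A from high to low. The rise in Baf180 knockdown was called (log2 fold change 0.75, SE 0.12, adjusted p = 0.00259, and 0.44 with the offsets), while Brd9 (0.38, SE 0.12, adjusted p = 0.0744) and Baf250A knockdown (-0.31, SE 0.12, adjusted p = 0.0765) were not. With the offsets the Brd9 value was called at 0.48 (adjusted p = 0.0173) and the Baf250A value was -0.02 (adjusted p = 0.909). Between knockdowns Mmp14 was lower in Baf250A than in Brd9 knockdown (log2 fold change -0.69, SE 0.12, adjusted p = 0.00373) and in Baf180 knockdown (log2 fold change -1.06, SE 0.12, adjusted p = 0.000184). It was also lower in Brd9 than in Baf180 knockdown (log2 fold change -0.37, SE 0.12, adjusted p = 0.03), which was no longer called with any 1 of the 4 libraries left out (adjusted p up to 0.113) or under the offsets, where the value was 0.04 (adjusted p = 0.843).

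Mmp2 (chromosome 8, 92827290 to 92853421), the gelatinase that Mmp14 activates, followed the same order at the top. It had 183 and 186 CPM in Brd9 knockdown, 116 and 98.1 in Baf250A knockdown, 265 and 217 in Baf180 knockdown and 90.8 and 83.1 in scramble. The groups again did not overlap, with Baf180 highest and scramble lowest. Mmp2 rose 2.78-fold in Baf180 knockdown (log2 fold change 1.47, SE 0.15, adjusted p = 0.000272) and 2.12-fold in Brd9 knockdown (log2 fold change 1.08, SE 0.15, adjusted p = 0.00264). The Brd9 call ended without scramble replicate 2 (adjusted p = 0.0554). The Baf250A difference was not called (0.30, SE 0.15, adjusted p = 0.142), but it was with the offsets (log2 fold change 0.62, SE 0.09, adjusted p = 0.000554). Baf250A and Brd9 knockdown differed (log2 fold change -0.78, SE 0.15, adjusted p = 0.0055), which was no longer called without Baf250A replicate 2 (adjusted p = 0.0588), as did Baf250A and Baf180 knockdown (log2 fold change -1.17, SE 0.15, adjusted p = 0.000272). Mmp9, the other gelatinase, was near the detection limit, with 7 and 8 counts in Brd9 knockdown, 20 and 6 in Baf250A knockdown, 37 and 30 in Baf180 knockdown and 16 and 15 in scramble. No comparison with scramble was called, the lowest adjusted p being 0.0957 in Baf180 knockdown.

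The other tested membrane-type MMPs were Mmp15, Mmp16 and Mmp17. Mmp15 had 22.3 and 27.7 CPM in Brd9 knockdown, 4.98 and 2.79 in Baf250A knockdown, 16.5 and 12.0 in Baf180 knockdown and 13.1 and 11.6 in scramble. Baf250A libraries were the lowest and Brd9 libraries the highest, without overlap, while Baf180 and scramble overlapped. Mmp15 fell 3.17-fold in Baf250A knockdown (log2 fold change -1.66, SE 0.29, adjusted p = 0.0042) and rose 2.03-fold in Brd9 knockdown (log2 fold change 1.02, SE 0.27, adjusted p = 0.0452). The Brd9 call ended with any 1 of the 4 libraries left out (adjusted p up to 0.243). The 2 knockdowns differed by -2.68 on the log2 scale, Baf250A minus Brd9 (SE 0.29, adjusted p = 0.000355). Baf180 knockdown was not called (0.21, SE 0.27, adjusted p = 0.574, and -0.28 with the offsets). Mmp16 had 4.70 and 3.82 CPM in Brd9 knockdown, 5.28 and 6.40 in Baf250A knockdown, 2.90 and 2.89 in Baf180 knockdown and 2.92 and 3.53 in scramble, and its rise in Baf250A knockdown (log2 fold change 0.86, SE 0.24, adjusted p = 0.0262) ended with the offsets (log2 fold change 0.29, SE 0.20, adjusted p = 0.291) and without Baf250A replicate 2 or either scramble library (adjusted p up to 0.162). Its transcripts have 43.5% GC, near the lowest among tested members. Mmp17, whose protein is held by a lipid anchor, had 16 to 35 counts per library and no call (lowest adjusted p 0.557).

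Mmp11, stromelysin 3, is secreted in active form after cleavage by furin. It had 66.0 and 67.9 CPM in Brd9 knockdown, 33.0 and 29.0 in Baf250A knockdown, 115 and 114 in Baf180 knockdown and 50.0 and 51.5 in scramble. The groups did not overlap, with Baf180 highest and Baf250A lowest. It rose 2.26-fold in Baf180 knockdown (log2 fold change 1.18, SE 0.13, adjusted p = 0.00036) and fell 1.64-fold in Baf250A knockdown (log2 fold change -0.71, SE 0.13, adjusted p = 0.00467), and that fall was no longer called without Baf250A replicate 2 (adjusted p = 0.0672). In Brd9 knockdown it was not called (0.40, SE 0.13, adjusted p = 0.0741), but it was with the offsets (0.59, adjusted p = 0.00448).

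Mmp28, Mmp19 and Mmp23 are less studied secreted or membrane-tethered MMPs. Mmp28, epilysin, had 11.6 and 12.1 CPM in Brd9 knockdown, 12.7 and 11.1 in Baf250A knockdown, 25.3 and 18.3 in Baf180 knockdown and 3.65 and 4.10 in scramble. Every knockdown library lay above both scramble libraries, and the rises were 3.06-fold in Brd9 (log2 fold change 1.61, SE 0.22, adjusted p = 0.00271), 3.06-fold in Baf250A (log2 fold change 1.61, SE 0.22, adjusted p = 0.00124) and 5.62-fold in Baf180 knockdown (log2 fold change 2.49, SE 0.22, adjusted p = 0.00014). The gene model 1700020L24Rik overlaps Mmp28 on the opposite strand, with 6 to 65 counts per library that were also highest in Baf180 knockdown. Mmp19, which cuts basement membrane proteins, had 25.3 and 24.3 CPM in Brd9 knockdown, 18.8 and 17.5 in Baf250A knockdown, 6.43 and 6.60 in Baf180 knockdown and 8.14 and 8.15 in scramble. It rose in Brd9 (log2 fold change 1.60, SE 0.16, adjusted p = 0.000598) and Baf250A knockdown (log2 fold change 1.15, SE 0.16, adjusted p = 0.00151) and was not called in Baf180 knockdown (-0.32, SE 0.17, adjusted p = 0.165), where both libraries lay below scramble. Tmem198b, which overlaps Mmp19 on the opposite strand, had 610 to 907 counts and no call against scramble. Brd9 and Baf250A each differed from Baf180 knockdown (log2 fold change 1.93, SE 0.17, adjusted p = 0.00057 for Brd9 and 1.48, SE 0.17, adjusted p = 0.00018 for Baf250A). Mmp23, which lacks the hemopexin-like domain of most MMPs, had 5.58 and 5.87 CPM in Brd9 knockdown, 2.72 and 1.65 in Baf250A knockdown, 12.1 and 7.09 in Baf180 knockdown and 1.63 and 1.73 in scramble. It rose 5.69-fold in Baf180 (log2 fold change 2.51, SE 0.34, adjusted p = 0.00122) and 3.39-fold in Brd9 knockdown (log2 fold change 1.76, SE 0.34, adjusted p = 0.014). The Brd9 call ended without Brd9 replicate 1 or either scramble library (adjusted p up to 0.108). Baf250A knockdown gave 0.38, SE 0.36, adjusted p = 0.441, and 0.80 with the offsets (adjusted p = 0.0336). Mmp23 overlaps Mib2 on the same strand, and Mib2 was also called higher in Baf180 knockdown (1163 and 814 counts, against 413 and 427 in scramble, log2 fold change 1.22, SE 0.24, adjusted p = 0.00567). Mib2 was called lower in Baf250A knockdown (313 and 216 counts, log2 fold change -0.83, SE 0.24, adjusted p = 0.03). In Brd9 knockdown it had 499 and 559 counts and no call.

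The proteoglycan-cleaving ADAMTS genes split by knockdown. Adamts4 (chromosome 1, 171250129 to 171262267), an aggrecanase that also cuts versican and brevican, had 49.3 and 48.6 CPM in Brd9 knockdown, 6.14 and 5.58 in Baf250A knockdown, 71.1 and 68.1 in Baf180 knockdown and 23.8 and 21.9 in scramble. No 2 groups overlapped. It fell 3.90-fold in Baf250A knockdown (log2 fold change -1.96, SE 0.15, adjusted p = 4.79e-05) and rose 2.14-fold in Brd9 (log2 fold change 1.10, SE 0.14, adjusted p = 0.00148) and 3.05-fold in Baf180 knockdown (log2 fold change 1.61, SE 0.14, adjusted p = 0.000118). The level in Baf250A knockdown was 11.9-fold lower than in Baf180 knockdown (log2 fold change -3.57, SE 0.15, adjusted p = 8.66e-06) and 8.35-fold lower than in Brd9 knockdown (log2 fold change -3.06, SE 0.15, adjusted p = 1.24e-05). These calls stood with each library left out and with the offsets.

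Adamts5 (chromosome 16, 85858157 to 85901125), the other main aggrecanase and a versican-cleaving enzyme studied in myoblast fusion, had 34.6 and 29.2 CPM in Brd9 knockdown, 42.4 and 54.7 in Baf250A knockdown, 29.3 and 39.9 in Baf180 knockdown and 8.03 and 7.98 in scramble. All 6 knockdown libraries lay above both scramble libraries. The rises were 3.98-fold in Brd9 (log2 fold change 1.99, SE 0.21, adjusted p = 0.000727), 6.07-fold in Baf250A (log2 fold change 2.60, SE 0.21, adjusted p = 7.83e-05) and 4.33-fold in Baf180 knockdown (log2 fold change 2.11, SE 0.21, adjusted p = 0.000261). Its transcripts are of low GC content, 43.7%, and the offsets moved the log2 fold change to 1.57 in Brd9, 1.94 in Baf250A and 2.71 in Baf180 knockdown, all called. The order of the knockdowns turned with them. Baf250A over Baf180 was 0.49, SE 0.20, adjusted p = 0.0529 without the offsets and -0.77, called lower, with them (adjusted p = 0.000208). Adamts1 (chromosome 16, 85793827 to 85803113), a versican-cleaving protease whose gene neighbours Adamts5 on chromosome 16, had 32.6 and 23.8 CPM in Brd9 knockdown, 45.5 and 56.0 in Baf250A knockdown, 26.0 and 32.9 in Baf180 knockdown and 26.8 and 24.8 in scramble. It rose in Baf250A knockdown (log2 fold change 0.97, SE 0.20, adjusted p = 0.00825), which was no longer called without scramble replicate 1 (adjusted p = 0.0527) or 2 (adjusted p = 0.0649), and it was not called in Brd9 (0.13, SE 0.20, adjusted p = 0.697) or Baf180 knockdown (0.19, SE 0.20, adjusted p = 0.478). Adamts9, which also cleaves versican, had 28 and 11 counts in Brd9 knockdown, 11 and 12 in Baf250A knockdown, 9 and 12 in Baf180 knockdown and 4 and 1 in scramble. It passed the filter through Brd9 and Baf250A and not through scramble, so its direction against scramble gives no support. It was called in Brd9 knockdown (log2 fold change 2.72, SE 0.68, adjusted p = 0.0384), but not without Brd9 replicate 1 or either scramble library (adjusted p up to 0.299) nor with DESeq2 (adjusted p = 0.0582).

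Adamts2 (chromosome 11, 50602085 to 50807573), the main procollagen N-proteinase, which removes the amino-terminal propeptide of fibrillar collagens, had 34.9 and 31.9 CPM in Brd9 knockdown, 55.3 and 48.5 in Baf250A knockdown, 68.2 and 61.3 in Baf180 knockdown and 8.65 and 8.55 in scramble. Every knockdown library exceeded both scramble libraries by more than the spread within groups. It rose 3.88-fold in Brd9 (log2 fold change 1.96, SE 0.15, adjusted p = 0.000183), 6.03-fold in Baf250A (log2 fold change 2.59, SE 0.15, adjusted p = 1.44e-05) and 7.52-fold in Baf180 knockdown (log2 fold change 2.91, SE 0.15, adjusted p = 1.59e-05), and each call stood with every library left out and with the offsets. Brd9 knockdown was lower than Baf180 knockdown (log2 fold change -0.95, SE 0.14, adjusted p = 0.00351), and Baf250A was higher than Brd9 knockdown (log2 fold change 0.64, SE 0.14, adjusted p = 0.0115), which was no longer called without Brd9 replicate 2 (adjusted p = 0.0648). Baf250A over Baf180 was -0.32, SE 0.14, adjusted p = 0.0711.

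Adamts14 (chromosome 10, 61197112 to 61273419), another enzyme of the same activity, had 36.2 and 44.3 CPM in Brd9 knockdown, 57.9 and 46.2 in Baf250A knockdown, 40.3 and 35.1 in Baf180 knockdown and 65.0 and 64.6 in scramble. All 6 knockdown libraries lay below both scramble libraries. It fell 1.72-fold in Baf180 (log2 fold change -0.78, SE 0.17, adjusted p = 0.00846) and 1.61-fold in Brd9 knockdown (log2 fold change -0.69, SE 0.17, adjusted p = 0.0327), and was not called in Baf250A knockdown (-0.32, SE 0.16, adjusted p = 0.165). The Baf180 call ended without either scramble library (adjusted p up to 0.055) and the Brd9 call also without Brd9 replicate 1 (adjusted p up to 0.251). With the offsets Adamts14 stood at -0.68 in Brd9, -0.02 in Baf250A and -1.26 in Baf180 knockdown. On the scale of CPM per kilobase, Adamts2 stood at 8.91 ± 0.677 and Adamts14 at 7.27 ± 0.717 in Baf180 knockdown, against 1.18 ± 0.00923 and 12.5 ± 0.0647 in scramble (mean ± SD, n = 2). Adamts3, the remaining N-proteinase, known also for activating the lymphatic growth factor VEGF-C, had 67 and 31 counts in Brd9 knockdown, 24 and 19 in Baf250A knockdown, 12 and 18 in Baf180 knockdown and 10 and 10 in scramble. It passed the filter through the knockdowns and not through scramble, so its direction against scramble gives no support. It was called in Brd9 knockdown (log2 fold change 2.09, SE 0.44, adjusted p = 0.0199), but not without Brd9 replicate 1 or either scramble library (adjusted p up to 0.179).

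Adamts7 and Adamts12 cleave the cartilage oligomeric matrix protein. Adamts7 had 57.7 and 68.0 CPM in Brd9 knockdown, 32.6 and 27.1 in Baf250A knockdown, 106 and 88.7 in Baf180 knockdown and 64.7 and 58.4 in scramble. It fell 2.06-fold in Baf250A knockdown (log2 fold change -1.04, SE 0.16, adjusted p = 0.00235), where both libraries lay below all others. It rose in Baf180 knockdown (log2 fold change 0.66, SE 0.16, adjusted p = 0.0138), which was no longer called with the offsets (0.23, adjusted p = 0.0685) and without Baf180 replicate 1 or either scramble library (adjusted p up to 0.111). Brd9 knockdown gave 0.03, SE 0.16, adjusted p = 0.919. Adamts12 had 5.04 and 4.09 CPM in Brd9 knockdown, 1.71 and 3.87 in Baf250A knockdown, 3.13 and 3.33 in Baf180 knockdown and 1.24 and 1.27 in scramble. It was called higher in Brd9 (log2 fold change 1.86, SE 0.38, adjusted p = 0.0185) and Baf180 knockdown (log2 fold change 1.36, SE 0.39, adjusted p = 0.0274). The Brd9 call ended without Brd9 replicate 1 or either scramble library (adjusted p up to 0.131), and the Baf180 call with any 1 of its 4 libraries left out (adjusted p up to 0.118).

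Adamts6 and Adamts10 act on the fibrillin microfibrils of the matrix. Adamts10 had 11.8 and 11.7 CPM in Brd9 knockdown, 13.2 and 10.5 in Baf250A knockdown, 28.5 and 20.6 in Baf180 knockdown and 10.1 and 10.6 in scramble, and rose 2.37-fold in Baf180 knockdown (log2 fold change 1.25, SE 0.21, adjusted p = 0.0032). With the offsets the rise was 0.79, and Baf250A knockdown was called as well (0.53, adjusted p = 0.0106). Adamts6 had 14.1 and 10.7 CPM in Brd9 knockdown, 8.90 and 11.3 in Baf250A knockdown, 3.94 and 5.40 in Baf180 knockdown and 6.57 and 11.3 in scramble. Its fall in Baf180 knockdown (log2 fold change -0.93, SE 0.31, adjusted p = 0.0434) ended with the offsets (log2 fold change -0.34, SE 0.23, adjusted p = 0.263), without Baf180 replicate 1 (adjusted p = 0.216) and without scramble replicate 2 (adjusted p = 0.319). Adamts6 has the lowest GC content of the tested members, 43.5%. Adamts16 had 52 and 34 counts in Brd9 knockdown, 4 and 6 in Baf250A knockdown, 7 and 2 in Baf180 knockdown and 10 and 7 in scramble. It was called higher in Brd9 knockdown (log2 fold change 2.14, SE 0.47, adjusted p = 0.0239), though not without Brd9 replicate 1 or either scramble library (adjusted p up to 0.188) nor with DESeq2 (adjusted p = 0.0517), and it passed the filter through the Brd9 libraries alone. Adamts13, the protease of von Willebrand factor, had 4.85 and 4.35 CPM in Brd9 knockdown, 2.41 and 2.94 in Baf250A knockdown, 2.43 and 2.78 in Baf180 knockdown and 2.36 and 3.24 in scramble and no call against scramble (lowest adjusted p 0.103). With the offsets it was called higher in Brd9 knockdown (log2 fold change 0.86, SE 0.27, adjusted p = 0.0387).

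The ADAMTS-like genes encode matrix proteins without protease activity. Adamtsl3 (chromosome 7, 82335399 to 82614450) had 44.5 and 35.8 CPM in Brd9 knockdown, 36.8 and 46.4 in Baf250A knockdown, 34.5 and 39.4 in Baf180 knockdown and 12.4 and 12.6 in scramble. All 6 knockdown libraries lay above scramble and overlapped among themselves. The rises were 3.21-fold in Brd9 (log2 fold change 1.68, SE 0.18, adjusted p = 0.000804), 3.33-fold in Baf250A (log2 fold change 1.73, SE 0.18, adjusted p = 0.000275) and 2.96-fold in Baf180 knockdown (log2 fold change 1.56, SE 0.18, adjusted p = 0.000577). No difference between knockdowns was called for it, with log2 values of 0.05 (Baf250A over Brd9, SE 0.17), 0.17 (Baf250A over Baf180, SE 0.17) and 0.12 (Brd9 over Baf180, SE 0.17). Adamtsl4, which binds fibrillin 1, had 39.8 and 49.6 CPM in Brd9 knockdown, 42.0 and 31.9 in Baf250A knockdown, 103 and 74.6 in Baf180 knockdown and 30.3 and 32.8 in scramble. It rose 2.81-fold in Baf180 knockdown (log2 fold change 1.49, SE 0.21, adjusted p = 0.00133), and with the offsets it was called in all 3 knockdowns (0.58 in Brd9, 0.60 in Baf250A and 0.99 in Baf180). Adamtsl5 had 32.6 and 39.2 CPM in Brd9 knockdown, 21.5 and 18.2 in Baf250A knockdown, 64.0 and 55.4 in Baf180 knockdown and 33.3 and 37.8 in scramble. It rose in Baf180 knockdown (log2 fold change 0.75, SE 0.16, adjusted p = 0.00963), which was no longer called with the offsets (0.26, adjusted p = 0.0513), without Baf180 replicate 1 (adjusted p = 0.061) and without scramble replicate 1 (adjusted p = 0.0861). It fell in Baf250A knockdown (log2 fold change -0.84, SE 0.17, adjusted p = 0.00727), which was no longer called without Baf250A replicate 2 (adjusted p = 0.076) or scramble replicate 2 (adjusted p = 0.0618). Adamtsl1 had 41 and 32 counts in Brd9 knockdown, 30 and 29 in Baf250A knockdown, 32 and 33 in Baf180 knockdown and 15 and 14 in scramble. It was called in Brd9 (log2 fold change 1.15, SE 0.31, adjusted p = 0.0488) and Baf180 knockdown (log2 fold change 1.14, SE 0.31, adjusted p = 0.0224), though in neither with any 1 of the 4 libraries left out (adjusted p up to 0.296 and 0.114).

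Tested directly against each other, the members differed between knockdowns about as often as other genes in 2 of the 3 comparisons. Baf250A over Baf180 knockdown had 19 of the 30 tested members called, close to the share over all genes. Of these, 6 were higher and 13 lower in Baf250A knockdown, where 30.8% of all tested genes were higher and 31.7% lower (62.5% in all). Baf250A over Brd9 knockdown had 4 higher and 10 lower (all genes 10.0% and 15.0%, 25.0% in all), and Brd9 over Baf180 knockdown 6 higher and 10 lower (all genes 26.3% and 23.3%, 49.6% in all). Left-out libraries lowered the last count to 5, without Brd9 replicate 1 or Baf180 replicate 1, and the Baf250A over Brd9 count to 9, without either group's replicate 2. Non-overlapping libraries, described above for single members, held for 82.1% of all tested genes between Baf250A and Baf180 knockdown, 61.7% between Baf250A and Brd9 and 78.5% between Brd9 and Baf180. The 9 members Mmp2, Mmp11, Mmp14, Mmp15, Mmp23, Adamts4, Adamts7, Adamtsl5 and Timp2 were lower in Baf250A than in either other knockdown, and Timp1 and Adamts1 were higher. Both comparisons share the Baf250A libraries. How often all tested genes were called in both was not computed, so this count only describes the members. The Timp2 calls ended with the offsets for Baf180 (-0.12, adjusted p = 0.248) and, for Brd9, with any 1 of the 4 libraries left out (adjusted p up to 0.261). Of these members the calls against Brd9 knockdown also ended for Adamts1, Adamtsl5 and Mmp23 without Baf250A replicate 2 or Brd9 replicate 2 (adjusted p up to 0.107). Adamts1 was likewise not called against Baf180 knockdown without Baf180 replicate 1 (adjusted p = 0.0572). Adamts16 counts among those called between Brd9 and each other knockdown, but it passed the filter through the Brd9 libraries alone, so its direction there gives no support. The same holds for Mmp9, called between Baf180 and each other knockdown, which passed through Baf180 and scramble. With the offsets the counts were 6 higher and 12 lower for Baf250A over Baf180 (all genes 27.0% and 28.0%, 55.0% in all), 6 and 13 for Baf250A over Brd9 (21.0% and 21.7%, 42.7% in all), and 7 and 6 for Brd9 over Baf180 (15.7% and 16.5%, 32.1% in all).

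Genes around the family were described from lists of other pathway members. Over all 12420 tested genes, 10.0% were called in Brd9, 29.5% in Baf250A and 34.2% in Baf180 knockdown. Their median log2 fold changes were 0.04, -0.02 and -0.02. Of 19 genes that activate, tether or inhibit MMPs, 15 were tested. In Brd9 knockdown 3 were higher and 1 lower (median log2 fold change 0.05), in Baf250A knockdown 3 and 6 (median -0.43, and -0.11 with the offsets), and in Baf180 knockdown 8 and 1 (median 0.59, and 0.10 with the offsets). Spock2, a testican proteoglycan, rose in Brd9 (log2 fold change 1.33, SE 0.15, adjusted p = 0.000995) and Baf180 knockdown (log2 fold change 2.12, SE 0.15, adjusted p = 5.23e-05). In Baf250A knockdown it was called lower (log2 fold change -0.82, SE 0.16, adjusted p = 0.00591), though not without Baf250A replicate 2 or scramble replicate 1 (adjusted p up to 0.0723). Lrp1, the receptor that clears proteases from the surface, rose in Baf180 knockdown (log2 fold change 1.29, SE 0.13, adjusted p = 0.00028), where Cd44, a docking site for Mmp9 and hyaluronan, fell (-1.25, SE 0.15, adjusted p = 0.000624). Lrp1 was also called higher in Brd9 knockdown (0.65, SE 0.13, adjusted p = 0.0169), though not without either scramble library. Cd44 was also called lower in Baf250A knockdown (-0.58, SE 0.15, adjusted p = 0.019), though not with any 1 library of either group left out. Plat, tissue plasminogen activator, rose in Brd9 (log2 fold change 1.27, SE 0.16, adjusted p = 0.00184) and Baf180 knockdown (1.02, SE 0.16, adjusted p = 0.00249). Plaur, the urokinase receptor, fell in Brd9 knockdown (-0.90, SE 0.14, adjusted p = 0.00574), though it was not called without Brd9 replicate 1 or scramble replicate 2. It was also called lower in Baf250A knockdown (-0.43, SE 0.14, adjusted p = 0.0494), but not with the offsets (-0.11, adjusted p = 0.325). Pcsk6, a proprotein convertase, rose in Baf250A (log2 fold change 2.73, SE 0.31, adjusted p = 0.000402) and Baf180 knockdown (1.84, SE 0.32, adjusted p = 0.00348). In Brd9 knockdown Pcsk6 was not called (1.09, SE 0.33, adjusted p = 0.065), but it was called higher with the offsets (1.15, adjusted p = 0.0136). Plau, urokinase (-0.97, SE 0.13, adjusted p = 0.00119), and Cd63, a surface partner of Timp1 (-1.12, SE 0.19, adjusted p = 0.00337), fell in Baf250A knockdown. Plau was called higher in Baf180 knockdown (log2 fold change 0.59, SE 0.13, adjusted p = 0.00983), though not without Baf180 replicate 1 or scramble replicate 2 (adjusted p up to 0.104).

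Of 18 matrix substrates 13 were tested. In Brd9 knockdown 7 were higher and 1 lower (median 0.62), in Baf250A knockdown 7 and 2 (median 0.46), and in Baf180 knockdown 9 and none (median 0.81). All tested genes had 10.0%, 29.5% and 34.2% called in the same order, with medians of 0.04, -0.02 and -0.02. Col1a1, the main chain of type I procollagen and a substrate of Adamts2, rose in Brd9 (log2 fold change 1.00, SE 0.12, adjusted p = 0.00138), Baf250A (0.77, SE 0.12, adjusted p = 0.0024) and Baf180 knockdown (1.26, SE 0.12, adjusted p = 0.000218). Col1a2, its partner chain, rose in Baf180 knockdown (log2 fold change 1.46, SE 0.12, adjusted p = 0.000118). It was also called higher in Brd9 (0.56, SE 0.12, adjusted p = 0.0224) and Baf250A knockdown (0.50, SE 0.12, adjusted p = 0.0163). Neither of those calls held without either scramble library, nor the Brd9 call without Brd9 replicate 1. Fbn1, fibrillin 1, rose in Baf250A (log2 fold change 0.88, SE 0.12, adjusted p = 0.00102), Baf180 (0.84, SE 0.12, adjusted p = 0.00136) and Brd9 knockdown (0.67, SE 0.12, adjusted p = 0.0086). The Brd9 call did not hold without scramble replicate 1 or 2. Fibronectin, Fn1, fell in Baf250A knockdown (log2 fold change -1.04, SE 0.13, adjusted p = 0.000796), as did Thbs1, thrombospondin 1 (-0.87, SE 0.18, adjusted p = 0.00906, adjusted p up to 0.0649 without Baf250A replicate 1 or scramble replicate 1). Thbs1 was called higher in Brd9 (log2 fold change 0.86, SE 0.18, adjusted p = 0.0209) and Baf180 knockdown (0.57, SE 0.18, adjusted p = 0.0379). Neither call held without either scramble library, nor without Brd9 replicate 1 in the first (adjusted p up to 0.167) or Baf180 replicate 2 in the second (adjusted p up to 0.183). Bgn, the proteoglycan biglycan, fell in Brd9 knockdown (log2 fold change -0.85, SE 0.15, adjusted p = 0.00959, adjusted p up to 0.0906 without Brd9 replicate 1 or either scramble library). It was called higher in Baf250A (log2 fold change 0.57, SE 0.15, adjusted p = 0.0224) and Baf180 knockdown (0.73, SE 0.15, adjusted p = 0.00757). Neither call held without either scramble library, nor the Baf250A call without Baf250A replicate 1 (adjusted p up to 0.151 in Baf250A and 0.0728 in Baf180 knockdown).

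Among 17 related metalloproteases of the ADAM, tolloid, meprin and pappalysin groups, 12 were tested. In Brd9 knockdown 5 were higher and none lower (median 0.58), in Baf250A knockdown 6 and 3 (median 0.42), and in Baf180 knockdown 5 and 1 (median -0.01). With the offsets the medians were 0.21, 0.04 and 0.31 in the same order. Without the offsets 10.0%, 29.5% and 34.2% of all tested genes were called, with medians of 0.04, -0.02 and -0.02. Adam19, a meltrin of muscle and bone, rose in Brd9 (log2 fold change 1.03, SE 0.13, adjusted p = 0.00208), Baf250A (1.66, SE 0.14, adjusted p = 7.78e-05) and Baf180 knockdown (1.32, SE 0.14, adjusted p = 0.00028), though in Brd9 knockdown not without scramble replicate 2 (adjusted p = 0.053). Adam23, a catalytically inactive ADAM, had 127 and 129 counts in Brd9, 75 and 85 in Baf250A and 145 and 164 in Baf180 knockdown, against 4 and 9 in scramble, and was called higher in each (adjusted p = 0.000202, 0.000225 and 5.93e-05). Pappa, a protease of IGF-binding proteins, fell in Baf250A (log2 fold change -2.37, SE 0.31, adjusted p = 0.000881) and Baf180 knockdown (-3.04, SE 0.32, adjusted p = 0.000342). In Brd9 knockdown Pappa was not called (-0.86, SE 0.28, adjusted p = 0.0834), but it was called lower with the offsets (-1.27, adjusted p = 0.00046). Bmp1, the procollagen C-proteinase, fell in Baf250A knockdown (log2 fold change -0.87, SE 0.16, adjusted p = 0.00468), though not without Baf250A replicate 2 (adjusted p = 0.0534). It was called higher in Baf180 knockdown (log2 fold change 0.81, SE 0.16, adjusted p = 0.00562), though not without scramble replicate 1 (adjusted p = 0.0529).

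Markers of cell types moved alongside these genes. Beside their called counts, 10.0%, 29.5% and 34.2% of all tested genes were called in Brd9, Baf250A and Baf180 knockdown. The 6 myoblast markers summed to 1302 and 1701 CPM in Brd9, 931 and 722 in Baf250A, 3094 and 2149 in Baf180 knockdown and 1624 and 1605 in scramble, with 4 of 6 lower in Baf250A knockdown and 4 higher and 1 lower in Baf180 knockdown. Smooth muscle markers summed to 4897 and 6011 CPM in Brd9, 8992 and 7606 in Baf250A, 10548 and 8409 in Baf180 knockdown and 3136 and 3159.6 in scramble, with 3, 4 and 4 of 4 higher. The 4 fibroblast and fibro-adipogenic markers summed to 90.4 and 69.8 CPM in Brd9, 132 and 149 in Baf250A, 100.1 and 105 in Baf180 knockdown and 78.8 and 76.3 in scramble. Of the 3 tested ones, 2 were higher in each knockdown and 1 lower in Brd9 and Baf250A knockdown. Cartilage markers summed to 54.8 to 110 CPM, with 2 of 4 tested, of which 1 was higher in Baf250A knockdown and 1 higher and 1 lower in Baf180 knockdown. Matn1 was at 0 in the 3 knockdowns and Acan in Brd9 and Baf180 knockdown. Tendon markers summed to 35.2 to 139 CPM, with 2 of 3 tested, of which 1 was higher and 1 lower in Baf250A knockdown. Macrophages, a frequent source of MMPs in tissue, left almost no trace, with 4 markers that summed to 1.70 to 3.59 CPM and Adgre1 at 0 in every library and Ptprc at 0 in Baf250A and Baf180 knockdown. The 4 endothelial markers summed to 0.281 to 0.63 CPM, with Kdr at 0 in Baf180 knockdown. The part of these marker shifts in the members' changes was not tested. In bulk libraries fewer expressing cells and less RNA per cell cannot be told apart.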

How the data were processed

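RNA from 8 libraries, 2 for each of 4 shRNAs in proliferating C2C12 cells, was sequenced on a BGISEQ-500. The authors deposited 1 table of estimated counts per gene, not normalized, of which 7.41% of the values carry decimals, with an Entrez ID and a gene length in bases. Per the submitters' processing notes the build was mm10 and the tools included RSEM, Bowtie2, HISAT2, StringTie, Cufflinks and DESeq2. The sources used here do not give their roles or versions, nor whether counting used strand. IDs were matched to the RefSeq gene table (GRCm38.p6), which named 24479 of 24573 genes by ID and 2 by accession. Estimated counts were rounded to whole numbers, filtered with filterByExpr (12420 genes tested), scaled with TMM and fitted with edgeR 4.0.16 (R 4.3.3, limma 3.58.1) over all 8 libraries. The quasi-likelihood test was run for 6 comparisons, with Benjamini-Hochberg adjustment over all tested genes of each. Every adjusted p here comes from that test unless DESeq2 (1.42.0) is named. Each SE was obtained as |log2 fold change| over the root of F. CPM uses TMM-scaled library sizes. Offsets for transcript GC content (GENCODE M21) and gene length were loess trends per library with span 0.3, and GC content was known for 98.95% of tested genes and all 51 members. The other alternatives tried were scaling by RLE or upper quartile, no filter on counts, DESeq2, a fit of the 4 compared libraries, the replicate number as a block, and each library left out. The fit was tested on simulated counts. Full values are given for Timp1 to Timp4, Mmp2, Mmp14 and every member called against scramble, the others are named with their range or highest count, and up to 2 genes per list, direction and comparison were named by lowest p. Some genes of the lists and some overlapping genes are not reported here. The members and lists were chosen with earlier results of these data known. Precision is limited by 2 libraries a group at 17763076 to 20400863 counts each.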

Additional observations from a re-analysis of the deposited data

How the results depend on the processing

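With other settings the counts of called members stayed within 1.5 times the reported ones for all 6 comparisons, apart from left-out libraries. Leaving out 1 library at a time gave 6 to 13 called members in Brd9 knockdown over scramble, 10 to 15 in Baf250A knockdown, 12 to 16 in Baf180 knockdown, 9 to 14 for Baf250A over Brd9, 16 to 20 for Baf250A over Baf180 and 5 to 16 for Brd9 over Baf180. These fits have fewer libraries, and the lone library of a group is assumed to vary like the others. With the replicate block the counts were 11, 13, 18, 12, 18 and 15 in the same order. Replicate numbers are only numbers here, since same-numbered libraries of different groups deviated together in some pairs and oppositely in others (correlations from -0.48 to 0.46).

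Of the 1394 single log2 fold changes recomputed, 1214 kept direction and side of the threshold, 20 gained a call, 135 lost one and 25 changed sign. They cover members called at least once against scramble and, between knockdowns, members called there. Among them the sign changed with the offsets in Brd9 knockdown for Adamts1 (-0.014) and Timp3 (-0.19), in Baf250A knockdown for Adamts6 (-0.47) and Timp2 (0.21), and in Baf180 knockdown for Mmp15 (-0.28) and Mmp16 (0.40). It also changed for Baf250A over Baf180 in Adamts6 (-0.14) and Mmp16 (-0.10) and for Brd9 over Baf180 in Mmp14 (0.037). Outside them it changed for Adamts13 in Baf250A knockdown (0.30) and, between knockdowns, in uncalled members that include Adamts5 (-0.77) and Timp3 (-0.24) for Baf250A over Baf180, both called with the offsets. Adamtsl5 in Brd9 knockdown was -0.0062 with RLE scaling and -0.0063 with DESeq2. Left-out libraries turned the sign in Brd9 knockdown of Adamts1 (-0.095 to 0.36), Adamts7 (-0.071 to 0.17), Adamtsl5 (-0.10 to 0.17), Timp1 (-0.050 to 0.14) and Timp3 (-0.098 to 0.23), in Baf250A knockdown of Adamts6 (-0.16 to 0.61) and Timp2 (-0.031 to 0.084), and in Baf180 knockdown of Mmp15 (-0.036 to 0.42) and Timp1 (-0.14 to 0.11). The same held for members with no call against scramble, in Baf250A knockdown for Adamts13 (-0.27 to 0.18), Mmp17 (-0.20 to 0.79) and Mmp9 (-1.43 to 0.24), and in Baf180 knockdown for Adamts13 (-0.31 to 0.15) and Mmp17 (-0.27 to 0.21). The cause was not tested. Adamts3, Adamts9, Adamts16 and Mmp9 had at most 67, 28, 52 and 37 counts in any library, and depth limits their values.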
